A study of Mus musculus with 8 samples.

Results

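Condensin II was depleted in mouse embryonic stem cells with 2 short hairpin RNAs against CapH2, the older name of the gene Ncaph2, and gene expression was compared with that of cells carrying a hairpin against GFP. The comparison used 4 of the 8 arrays of the series, chosen by their titles: 1 array of CapH2 hairpin 3, 1 array of CapH2 hairpin 4, and 2 biological replicates of GFP hairpin 1. The other 4 arrays, from Smc2 and Smc1 knockdowns, entered only to estimate the spread per gene and for direct comparisons. Of the 18140 genes with a probe set of their own, 12394 lay above the array median on at least 2 of the 8 arrays and were tested.

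All groups were V6.5 embryonic stem cells, a male mouse line, infected with virus in medium containing 8 µg/ml polybrene, placed in medium with 4 µg/ml puromycin for 4 days and harvested for RNA on day 5. The controls therefore also carried virus, a hairpin and the drug, and no array came from uninfected cells. Each CapH2 hairpin was hybridised once, so the spread within the CapH2 group joins a difference between hairpins to a difference between cultures. The GFP group had a single hairpin, and an effect of that hairpin on a gene cannot be told apart from the absence of CapH2 depletion. Cells were measured in bulk and under selection, and the arrays give no protein level.

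Condensins are ring-shaped complexes that fold chromatin into loops. The SMC proteins Smc2 and Smc4 form the arms of the ring in both condensins, and a kleisin closes it: Ncaph2 in condensin II and Ncaph in condensin I. Condensin II stays in the nucleus through interphase and shortens the chromosome axis in mitosis, and condensins have also been found at active promoters and at genes transcribed by RNA polymerase III.

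The arrays had been scaled to a common mean, and the deposited intensities had array medians between 62.5 and 74.5. Correlation of log2 values across genes, which are not independent replicates, was 0.974 between the CapH2 hairpins and 0.981 between the GFP arrays. With the first and second GFP array it was 0.952 and 0.958 for hairpin 3, and 0.978 and 0.976 for hairpin 4. Hairpin 4 thus correlated slightly more closely with both GFP arrays than with hairpin 3. Hairpin 3 correlated most closely with Smc2 hairpin 1 (r = 0.985) and hairpin 4 with Smc2 hairpin 2 (r = 0.984). All 10 embryonic stem cell markers lay above the array median on all 4 arrays. The summed intensity of 9 feeder fibroblast markers was 1065 on hairpin 3, 741 on hairpin 4, and 667 and 736 on the GFP arrays. Of these, 6, 5, 3 and 3 markers lay above the array median in the same order. Col1a2 gave 405, 168, 127 and 183, and Col3a1 163, 87.7, 55.9 and 68.5, both highest on hairpin 3. Pdgfrb was lowest on hairpin 3, at 118, 233, 206 and 230. Dcn, which encodes decorin, was dim throughout, at 5.01, 18.4, 5.06 and 3.11. The ratio of 3′ to 5′ probe sets of Actb, a measure of RNA integrity, was 1.67 on hairpin 3, 1.98 on hairpin 4, and 2.18 and 2.04 on the GFP arrays.

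The targeted gene came first. Ncaph2 had an intensity of 398 with hairpin 3 and 429.5 with hairpin 4, against 3469 and 3168 on the GFP arrays. Both hairpins lay far below both controls and close to each other. The CapH2 mean was 414 ± 22.6 (SD, n = 2) and the GFP mean 3318 ± 213 (SD, n = 2), so that 12.5% of the control level remained. Ncaph2 fell by 2.96 on the log2 scale (log2 of the intensity plus 16; standard error 0.22, limma adjusted p = 0.00115). The 3 further probe sets of the gene gave smaller differences, at 36.0 and 41.5% of the GFP mean with separated groups and at 87.1% with overlapping groups. On the Smc2 arrays Ncaph2 had intensities of 2134 and 3049, and on the Smc1 arrays 2294 and 3075.

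The other subunits of the complex were measured on the same arrays. Ncapd3, a HEAT-repeat subunit of condensin II, gave 2413 and 3347 with hairpins 3 and 4 against 3424 and 2945 with GFP. The other such subunit, Ncapg2, gave 1622 and 2089 against 2355 and 2089. In both cases hairpin 3 was the lowest of the 4 arrays and hairpin 4 lay within or at the edge of the GFP values. Smc2 was lower on both hairpins, at 6088 and 7094 against 8756 and 7146, and so was its partner Smc4, at 7931 and 9957 against 12475 and 9957. The separation of Smc2 and Smc4 rested on hairpin 3, since hairpin 4 lay next to the second GFP array, and after quantile normalization the groups of both genes overlapped. In condensin I the kleisin Ncaph gave 4268 and 5945 against 6284 and 7127, a difference of -0.41 on the log2 scale (standard error 0.18), while Ncapd2 and Ncapg overlapped with the controls. None of these 7 subunits passed the test (limma adjusted p between 0.39 and 0.758), and 1 of them, Ncaph, had an unadjusted p below 0.05.

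The only other gene to pass was Hnrnpll. It encodes an RNA-binding protein known for its control of alternative splicing in lymphocytes. Its intensity was 4861 with hairpin 3 and 5578 with hairpin 4, against 1450.4 and 1587 with GFP. Both hairpins lay more than 3-fold above both controls: the ratio of the group means, 5220 ± 507 and 1519 ± 96.6 (SD, n = 2 each), was 3.44. The rise was 1.77 on the log2 scale (standard error 0.16, limma adjusted p = 0.00318). A second probe set of Hnrnpll gave 3164 and 3481 against 1423 and 1652, a difference of 1.11. Hnrnpll stood at the same level on the other knockdown arrays, at 5654 and 4742 with the Smc2 hairpins and at 5333 and 5142 with the Smc1 hairpin. In direct comparison CapH2 differed from Smc2 by 0.01 (95% interval -0.34 to 0.36) and from Smc1 by -0.01 (95% interval -0.36 to 0.34). The 6 knockdown arrays thus shared 1 level and the 2 GFP arrays another, and a change in the knockdowns cannot be told apart from a change caused by the GFP hairpin.

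With these 2 genes, 0.0161% of the genes tested were called against GFP at an adjusted p below 0.05, while 1565 genes (12.6%) had an unadjusted p below 0.05. The third smallest adjusted p was 0.0956. The call depended on the spread used. With the spread taken from the CapH2 and GFP arrays alone, 10 genes passed; they were AU015836, Cox6b2, Dazl, Egr1, Gja1, Hnrnpll, Lefty1, Mt4, Ncaph2 and Pcyt1b, of which Cox6b2 and Gja1 are named after their values were seen. Without the first or the second GFP array no gene passed (837 and 1153 genes at an unadjusted p below 0.05, respectively), and Ncaph2 then had a limma adjusted p of 0.0918 or 0.0612. Without either Smc2 array 4 genes passed.

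**Figure D1:**
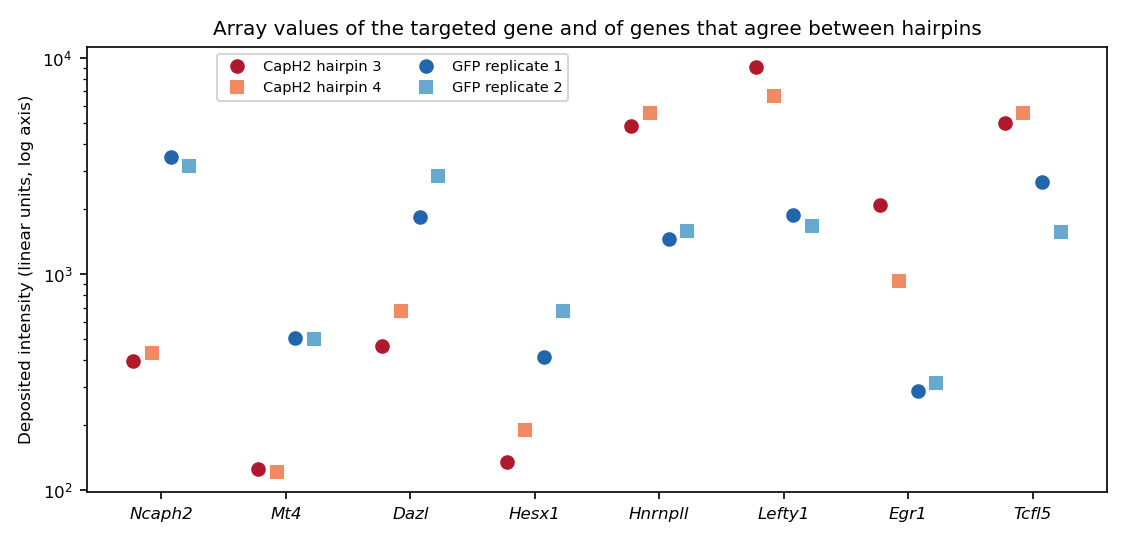
Deposited intensity (linear units on a log axis) of 8 genes on each of the 2 CapH2 and 2 GFP arrays; every symbol is 1 array. Ncaph2, Mt4, Dazl and Hesx1 lie lower on both hairpins than on both GFP arrays, and Hnrnpll, Lefty1, Egr1 and Tcfl5 lie higher.

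Agreement between the hairpins was then used to rank genes. Both hairpins lay above both GFP arrays for 3132 genes (25.3% of those tested) and below both for 2719 (21.9%). Which direction had more genes depended on the processing, with 2756 higher and 3108 lower after median centring and 2538 and 2728 with the mean of a gene's probe sets. The direction was the same on both hairpins with at least a 2-fold difference from the GFP mean for 118 genes higher (0.952%) and 53 genes lower (0.428%). With 1 of the 4 arrays left out, which relaxes the rule, the counts rose to between 4398 and 5104 higher and between 4117 and 4663 lower. No gene was at least 2-fold away in opposite directions. In 80 of the 118 the GFP mean, and in 24 of the 53 the CapH2 mean, was at or under the highest array median, which left 38 higher and 29 lower genes with both groups above that floor. Genes above the floor were ranked by the smaller of their 2 hairpin changes, so a gene ranks high only if both hairpins differ from GFP, and the 12 leading genes in each direction are described. Apart from Ncaph2 and Hnrnpll, none of these 24 was called, with limma adjusted p between 0.153 and 0.394 for the higher and 0.158 and 0.39 for the lower genes.

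**Figure D2:**
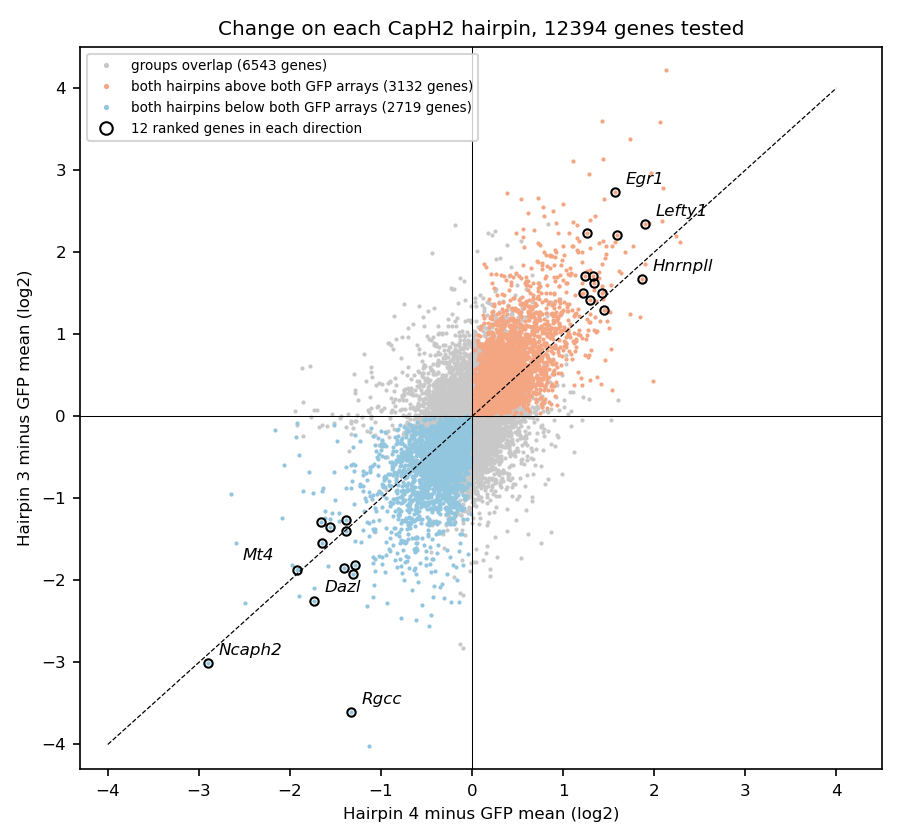
Change against the GFP mean (log2 of intensity plus 16) with hairpin 3 (vertical) and hairpin 4 (horizontal) for 12394 genes; each point is a gene, coloured by whether both hairpins lie above or below both GFP arrays, and circles mark the 12 ranked genes in each direction. Ncaph2 lies near the dashed line of equal change, and Rgcc lies well off it, at -3.60 and -1.33.

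Lefty1 led the higher genes. It encodes a secreted inhibitor of Nodal and is itself a Nodal target. Its intensity was 9062 with hairpin 3 and 6648 with hairpin 4, against 1871 and 1676 with GFP, a difference of 2.12 on the log2 scale (standard error 0.42, limma adjusted p = 0.161). Both hairpins lay above every control by more than 3-fold. The related inhibitor Lefty2 gave 1883 and 1484 against 721 and 964, again with separated groups.

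Egr1, an immediate early transcription factor that follows growth factor signalling, gave 2086 and 925 against 288 and 313. The hairpins agreed in direction but not in size, at 2.73 and 1.57. Cachd1, a protein related to calcium channel subunits, gave 452 and 289.6 against 67.7 and 107. Insm1, a zinc finger factor of neuroendocrine cells, gave 436 and 412 against 138 and 148, and here the hairpins lay close together. Crmp1, a cytoskeletal protein of growing axons, gave 873 and 668 against 284 and 230.4.

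Tcfl5, a basic helix-loop-helix factor best known from the testis, gave 5028 and 5592 against 2656 and 1562. The hairpins agreed here more closely than the controls did. Pcyt1b, an enzyme of phosphatidylcholine synthesis, gave 1001 and 816 against 288 and 341. Bend3, a protein that binds unmethylated CG-rich promoters, gave 1803 and 907 against 302 and 453. Every one of these had separated groups, but Bend3 was much further from the controls on hairpin 3.

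The remaining 3 were Bmp1, Flywch2 and Gpx8. Bmp1, a protease that matures procollagen, gave 184 and 166 against 132 and 21.6, so its separation rested on a narrow gap to the first GFP array. Flywch2 gave 637 and 453 against 249 and 134. Gpx8, a peroxidase of the endoplasmic reticulum, gave 518 and 421 against 186 and 159.

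Below Ncaph2, the lower genes were led by Mt4 and Dazl. Mt4, a metallothionein of stratified epithelia, gave 126 and 121 against 507 and 502, with 2 tight pairs of values and a difference of -1.90 (standard error 0.38, limma adjusted p = 0.161). Dazl, an RNA-binding protein of germ cells, gave 466 and 672 against 1829.6 and 2832, a difference of -1.99 (standard error 0.44, limma adjusted p = 0.194). A second probe set of Dazl stood at 26.5% of the GFP mean with separated groups.

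Hesx1, a homeobox factor of the anterior epiblast and pituitary, gave 135 and 189 against 415 and 674. Rgcc, a regulator of the cell cycle, gave 149 with hairpin 3 and 781 with hairpin 4 against 2097 and 1887. It had the widest disagreement between hairpins among the 24 genes, although both lay below the controls. Calb2, the calcium-binding protein calretinin, gave 127 and 94.2 against 309 and 359. Apobec2, a muscle member of the cytidine deaminase family, gave 242 and 220.0 against 720.5 and 503.

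The other 5 were Scel, Cdc42ep2, AU015836, Defb42 and Fam183b. Scel, a protein of the cornified envelope, gave 80 and 73.0 against 193 and 357. Cdc42ep2, an effector of the small GTPase Cdc42, gave 85.1 and 85.8 against 221 and 285, with hairpin values close to each other. Both genes were dim with the CapH2 hairpins. AU015836 gave 402 and 345 against 1096 and 1009. Defb42, a beta-defensin, and Fam183b lay between 67.6 and 119 on the CapH2 arrays and between 269 and 357 on the GFP arrays. Apart from AU015836, the CapH2 values of these genes lay between 67.6 and 119, near the floor of 74.5.

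Among these 24 genes 11 had a further probe set, 14 in all, and 10 of the 14 were above the floor. Here and below, a further probe set counts as above the floor if the mean of either group is, a looser rule than for the ranking. For those of Cachd1, Insm1 and Pcyt1b only the CapH2 mean was. Their GFP values were 74.8 and 63.7, 81.3 and 38.1, and 14.3 and 9.13. Groups were separated in the ranked direction on 9 of those 10 and in the opposite direction on 0. The further sets were read on the same arrays that ranked the genes, so they are no independent support. The change was larger with hairpin 3 for 10 of the 12 higher genes and for 7 of the 12 lower genes.

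Promoters of the ranked genes were read from the RefSeq table of assembly GRCm38.p6, which held 17 of the 24. The 4 shown run from CG-rich to CG-poor among genes that differed from GFP on both hairpins, and are printed as the 250 bases before the annotated start, 5′ to 3′ on the gene's strand, with every CG in capitals. Tcfl5, among the higher genes, lies on the minus strand of chromosome 2 (chr2:180642692-180642941). The lower genes are Dazl on the minus strand of chromosome 17 (chr17:50293621-50293870), Mt4 on the plus strand of chromosome 8 (chr8:94136954-94137203) and Hesx1 on the plus strand of chromosome 14 (chr14:27000112-27000361).
Tcfl5: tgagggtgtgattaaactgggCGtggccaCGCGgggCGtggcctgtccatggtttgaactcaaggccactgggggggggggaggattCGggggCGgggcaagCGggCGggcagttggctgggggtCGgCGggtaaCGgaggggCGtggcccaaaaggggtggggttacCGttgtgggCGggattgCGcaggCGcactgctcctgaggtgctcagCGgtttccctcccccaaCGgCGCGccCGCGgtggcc
Dazl: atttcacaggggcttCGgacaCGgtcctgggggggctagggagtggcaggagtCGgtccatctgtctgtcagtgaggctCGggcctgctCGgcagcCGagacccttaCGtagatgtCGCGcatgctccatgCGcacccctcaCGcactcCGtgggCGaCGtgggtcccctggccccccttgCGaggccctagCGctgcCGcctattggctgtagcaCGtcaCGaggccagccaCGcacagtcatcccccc
Mt4: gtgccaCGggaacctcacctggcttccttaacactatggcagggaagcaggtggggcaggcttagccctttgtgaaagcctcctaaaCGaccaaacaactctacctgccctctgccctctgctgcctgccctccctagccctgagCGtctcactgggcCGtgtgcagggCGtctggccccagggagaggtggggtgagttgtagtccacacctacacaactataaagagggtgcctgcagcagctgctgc
Hesx1: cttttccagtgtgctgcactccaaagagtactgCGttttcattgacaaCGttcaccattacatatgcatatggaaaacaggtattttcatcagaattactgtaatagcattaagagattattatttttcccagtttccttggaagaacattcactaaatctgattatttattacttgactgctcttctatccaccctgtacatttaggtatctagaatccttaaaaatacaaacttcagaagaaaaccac
These hold 22, 20, 5 and 2 CG dinucleotides. Over the 10025 matched genes tested (80.9%), the median was 16 CG per 250 bases, a site that reads the same on both strands, and 73.9% held at least 10. In the 10 matched of the 12 ranked lower genes (83.3%) the median was 5.5 and 40% held at least 10. Over the 43 matched of the 53 genes at least 2-fold lower (81.1%) the median was 8 and 46.5% held at least 10. Only 58.3% of the ranked higher and 72.9% of the 2-fold higher genes were matched, under the 80% set for this count, so it is void for them.

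Dim genes made up most of the large differences. Genes were divided into 4 bins of equal size by their mean level on the 4 Smc2 and Smc1 arrays, which the ranking did not use. In the dimmest bin 61 genes were at least 2-fold higher on both hairpins and 35 lower, against 7 and 2 in the brightest. The spread between the hairpins fell with level, from a standard deviation over genes of 0.627 to 0.313, and so did that between the GFP arrays, from 0.611 to 0.261. Of the 53 lower genes 35 were in the dimmest bin, where 76.8% of genes had a promoter in the table. All matched genes of that bin had a median of 11 CG and 54.1% held at least 10, nearer to the lower genes than the 16 and 73.9% over all genes, although that match is also under 80%.

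**Figure D3:**
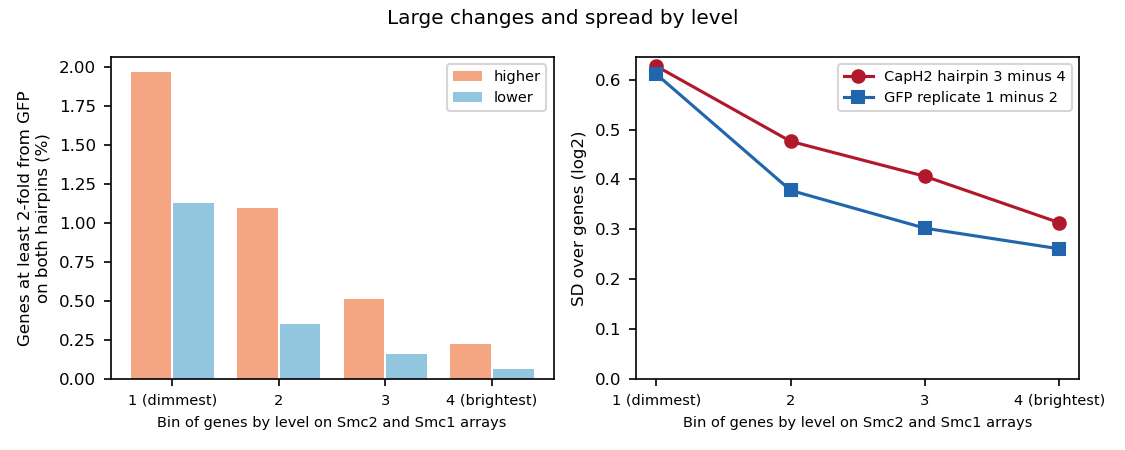
Left, share of genes (%) at least 2-fold higher or lower than the GFP mean on both hairpins, by bin of genes ordered by level on the Smc2 and Smc1 arrays; right, standard deviation over genes (log2) of the difference within the CapH2 pair and within the GFP pair. The share higher runs from 1.97% in the dimmest to 0.226% in the brightest bin, and both standard deviations fall.

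The 2 hairpins reached a similar residual Ncaph2 level but differed in the size of the wider change. Hairpin 3 was at least 2-fold above the GFP mean for 595 genes and below it for 452, against 174 and 165 genes for hairpin 4. The median absolute change was 0.326 with hairpin 3 and 0.209 with hairpin 4 on the log2 scale. Of the 5851 genes with separated groups, 70.3% had the larger change on hairpin 3. The standard deviation over genes of hairpin 3 minus hairpin 4 was 0.470, against 0.414 between the GFP replicates, 0.438 between the Smc1 replicates and 0.530 between the Smc2 hairpins. The spread between CapH2 hairpins lay between those of single-hairpin replicates and that of the Smc2 hairpins. Across genes, hairpin 3 minus hairpin 4 had a correlation of 0.410 with Smc2 hairpin 1 minus hairpin 2, of 0.259 with the Smc1 replicate difference and of -0.194 with the GFP replicate difference. These pairs share no array, and genes are not independent. Hairpin 3 also had the lowest 3′ to 5′ ratio of Actb (1.67) and the highest feeder marker sum (1065) of the 4 arrays, and their part in its larger changes was not tested.

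Above the floor, 1276 genes lay on opposite sides of the controls with the 2 hairpins, out of 12394 tested. By the same floor, both hairpins lay above both controls for 2682 genes and below both for 2366. Fgfbp1, a carrier of fibroblast growth factors, was widest apart, at 968 with hairpin 3 and 156 with hairpin 4 against 163 and 197. Ccn1, a matricellular protein induced by serum and stretch, gave 1824 and 555 against 817 and 1289.8, and Prr5l, a binding partner of mTORC2, gave 140.3 and 32.1 against 55.2 and 134. Pdzk1, Cxcl14 and Zfp30 went the other way, lower with hairpin 3 and higher with hairpin 4. The hairpin 3 values of these 3 lay between 41.0 and 69.0 and the hairpin 4 values between 179 and 322, against GFP values from 106 to 320.0. For none of these 6 genes was the mean change past the test (limma adjusted p between 0.527 and 0.986, with 0 at an unadjusted p below 0.05). Further probe sets above the floor did not all share the opposite directions. That of Cxcl14 was lower on both hairpins, at 59.6 and 52.8 against 98.4 and 68.0. That of Prr5l was higher on both, at 76.2 and 73.2 against 24.7 and 51.7. A further set of Ccn1 kept opposite sides, at 691 and 160 against 260 and 319.

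Gene lists were described next by how many members had separated groups, beside 25.3% higher and 21.9% lower over all genes, whose median change was 0.01. In RNA from bulk cells, fewer cells of a type and less RNA per cell cannot be told apart. Only Hnrnpll and Ncaph2 were called in any list (limma adjusted p below 0.05), and counts at an unadjusted p are given where a list leads. Over all 12394 genes tested, 937 were higher and 628 lower at a limma unadjusted p below 0.05.

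**Figure D4:**
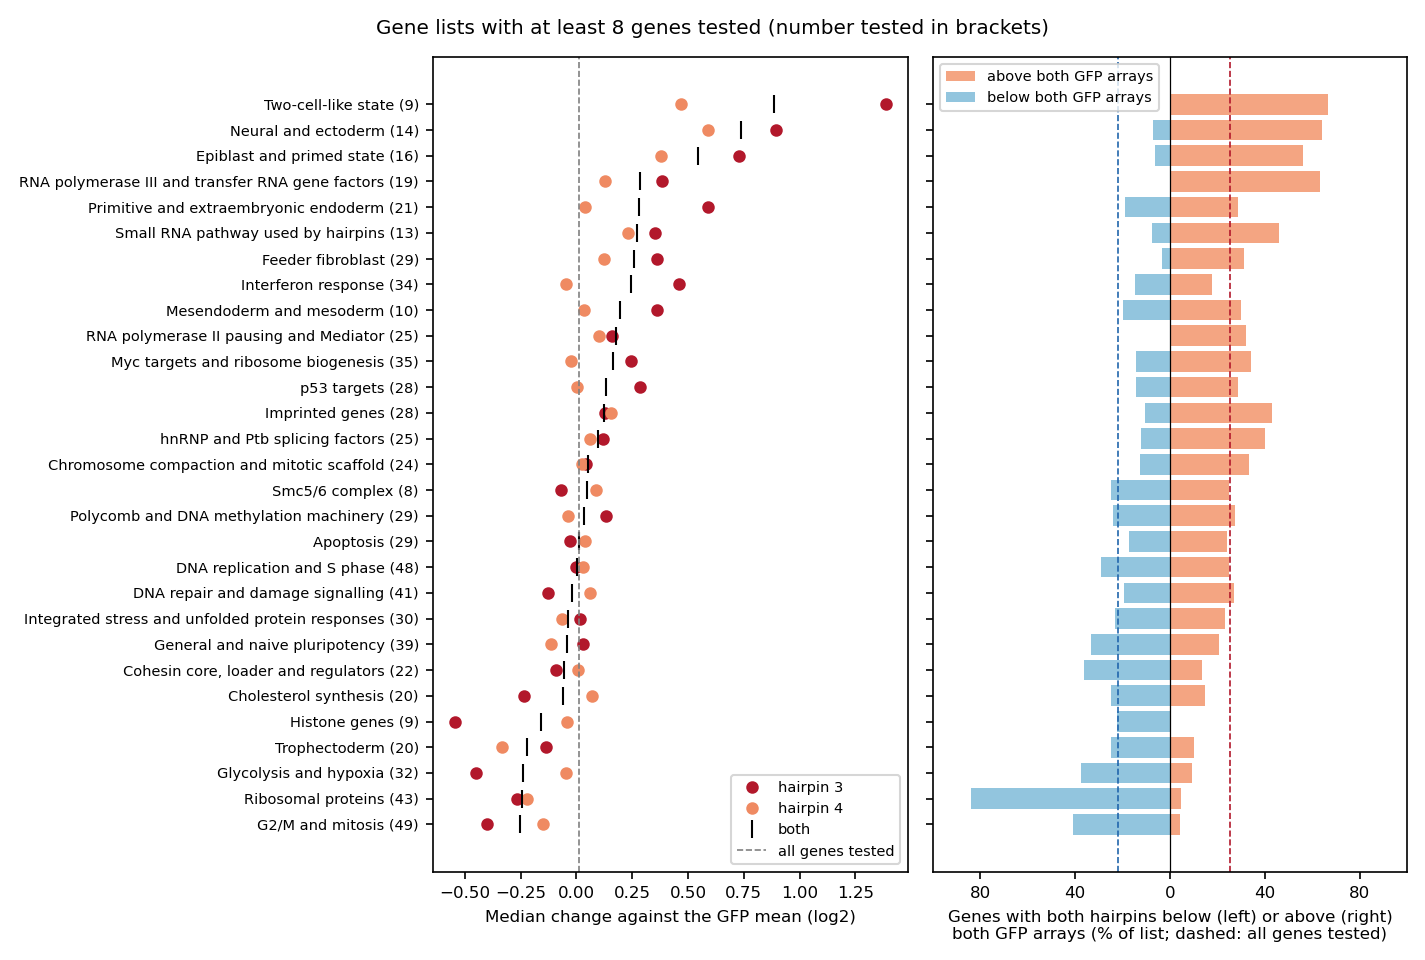
Left, median change (log2) of each gene list against the GFP mean with hairpin 3, with hairpin 4 and for both together; right, share of each list (%) with both hairpins below (left of 0) or above (right of 0) both GFP arrays, with dashed lines for all genes tested (21.9 and 25.3%). RNA polymerase III, neural, epiblast and 2-cell-like lists lie to the right on both hairpins, and G2/M and ribosomal protein genes lie to the left.

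RNA polymerase III transcribes transfer RNA genes and 5S RNA, and TFIIIC recruits it there. Of 19 tested genes for its subunits and factors, 12 were higher on both hairpins and 0 lower, with a median of 0.29 (0.39 with hairpin 3, 0.13 with hairpin 4) and 5 higher at an unadjusted p below 0.05. Polr3c, a subunit of the polymerase, gave 779 and 492 against 285 and 306 on its brightest probe set, but a second one above the floor was separated the other way, at 271 and 359.9 against 411 and 385. Gtf3c3, a subunit of TFIIIC, gave 1805 and 2387 against 1308 and 936, and Gtf3c6, another, gave 2101 and 1507 against 1065 and 1032. These 3 had changes of 1.03, 0.90 and 0.75 with limma adjusted p of 0.206, 0.197 and 0.321. With the mean of each gene's probe sets the list's median was 0.16. Against the Smc2 and Smc1 arrays the list's median difference was 0.16 and 0.03.

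Mediator and the factors that pause or release RNA polymerase II leaned the same way less strongly, with 8 of 25 higher, 0 lower and a median of 0.18 (0.10 without hairpin 3 and with the mean of probe sets). Med1, a Mediator subunit contacted by nuclear receptors, gave 1154 and 1004 against 577 and 505. Its 6 further probe sets above the floor did not share a direction: 2 were separated higher, 3 overlapped and 1 was separated lower, at 160.4 and 255 against 577 and 530.1. Nelfcd, a subunit of the pausing factor NELF, gave 1633 and 1699 against 1089 and 1142, and Supt6, an elongation factor, gave 807 and 722 against 469.6 and 578. On the brightest probe sets the hairpins lay close together for all 3.

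Among 25 hnRNP and Ptb splicing factors, 10 were higher and 3 lower, with a median of 0.10. Beside Hnrnpll, Hnrnpa0 gave 7479 and 7444 against 4387 and 4805 (0.70, standard error 0.15, limma adjusted p = 0.186). Hnrnpu, a nuclear matrix protein that also binds chromatin, gave 16113 and 11497 against 6892 and 8589.8, and of its 4 further probe sets above the floor 1 was separated the same way and 3 overlapped. The small RNA pathway that processes hairpins had 6 of 13 genes higher and 1 lower, with a median of 0.27. Dicer1, the RNase that cuts hairpins into small RNAs, gave 1389 and 1207 against 499 and 619, a change of 1.20 (standard error 0.22, limma adjusted p = 0.153). Drosha, which makes the preceding cut, gave 8599 and 8953 against 5601 and 7404, and the Argonaute gene Ago3 gave 186 and 192 against 159.9 and 92.9, with 1 of its 2 further probe sets above the floor overlapping.

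The core pluripotency factors stayed bright. Pou5f1 (Oct4) gave 8572 and 10547 against 13641 and 11327, and Nanog gave 12295 and 12978 against 15590.0 and 14689.6, both lower on both hairpins. Sox2, Klf4 and Esrrb had changes of -0.21, 0.26 and -0.29 (limma adjusted p between 0.574 and 0.666), and the groups of Sox2 and Klf4 overlapped. Over 39 general and naive pluripotency genes, 8 were higher and 13 lower, with a median of -0.04. Prdm14, a repressor that holds the naive state, was the lowest, at 861 and 1247 against 2159 and 2487 (-1.15, standard error 0.35, limma adjusted p = 0.29). With Lefty1 and Lefty2 at the other end, the list did not move one way.

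Epiblast and primed-state genes did lean one way: 9 of 16 were higher and 1 lower, with a median of 0.54 (0.73 with hairpin 3, 0.38 with hairpin 4) and 7 higher at an unadjusted p below 0.05. Dnmt3b, a de novo DNA methyltransferase raised in the epiblast, gave 9522 and 4871 against 1849.6 and 2511. Its paralog Dnmt3a gave 2176 and 1203 against 763 and 663. Cdh2, N-cadherin, gave 338 and 194 against 49.6 and 95.8, and Sox3 gave 278 and 249 against 137 and 113. In each case hairpin 3 was the higher of the pair. None of these 4 passed the test (limma adjusted p between 0.239 and 0.33, all 4 with an unadjusted p below 0.05). The GFP mean of Cdh2, 72.7, was under the floor. Cdh2 passed the filter only with the help of knockdown arrays, which favours a higher result, so it is no support for the lean. Against the Smc2 and Smc1 arrays the list's median difference was 0.015 and -0.47, so the lean was not particular to CapH2.

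Neural and ectoderm genes had 9 of 14 higher, 1 lower and a median of 0.74, with 6 higher at an unadjusted p below 0.05. Sox11 gave 675 and 622 against 287 and 265, Neurod1 gave 2288 and 1993 against 1137 and 1054, and Pax6 gave 355 and 337 against 188 and 181. All 3 are transcription factors of neural differentiation, and for each the hairpins lay within 0.20 of each other on the log2 scale. Genes of the 2-cell-like state, a rare state with transcripts of the cleavage embryo, had 6 of 9 higher and 0 lower, with a median of 0.88. That median was 1.39 with hairpin 3 and 0.47 with hairpin 4. Against the Smc2 and Smc1 arrays the median difference was -0.21 and -0.37 for this list, and 0.08 and 0.45 for the neural list. Usp17la gave 1378 and 438 against 392 and 132, and Tcstv3 gave 82.6 and 46.8 against 33.9 and 1.83, with hairpin 4 close to the upper control in both. Zfp352 gave 90.0 and 57.0 against 19.1 and 30.7. The controls of Tcstv3 and Zfp352 were under the floor. Both genes passed the filter only through knockdown arrays, which favours a higher result, so they are no support for the lean of the list.

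Other lineages leaned less. Trophectoderm had 2 of 20 higher and 5 lower (median -0.22), primitive endoderm 6 of 21 higher and 4 lower (0.28), and mesendoderm 3 of 10 higher and 2 lower (0.20). The last 2 medians rested on hairpin 3, at 0.59 and 0.36, and were 0.038 and 0.037 with hairpin 4. Of these, Ascl2, a trophoblast factor, gave 134 and 121 against 175 and 333. Cnn1, a smooth muscle calponin, gave 135 and 107 against 11.9 and 14.2, with a limma adjusted p of 0.194, and its controls were far under the floor. Cnn1 passed the filter only through knockdown arrays, which favours a higher result. Feeder fibroblast genes had 9 of 29 higher and 1 lower (median 0.26). Lox, an enzyme that crosslinks collagen, gave 328 with hairpin 3 and 93.4 with hairpin 4 against 33.9 and 63.96. Its controls were under the floor and it passed the filter only through knockdown arrays, so it is no support for the lean of the list. The part of feeder cells in the lineage lists was not tested.

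Genes of mitosis leaned down. Of 49 G2/M genes, 2 were higher and 20 lower on both hairpins, with a median of -0.25 (-0.40 with hairpin 3, -0.15 with hairpin 4) and 4 lower at an unadjusted p below 0.05. Cdca3, which helps the cell enter mitosis, gave 6146 and 7714 against 11884 and 9536, while the groups overlapped on its other probe set above the floor. Pttg1, the securin that holds back separase, gave 12579.9 and 14480.1 against 21952 and 16267, and Dlgap5, a spindle protein, gave 1659.7 and 1934 against 2519 and 2536. DNA replication genes had 12 of 48 higher, 14 lower and a median of 0.0035, a balance that moved with the scaling: 7 higher and 15 lower after median centring, and 15 higher and 11 lower after quantile normalization. DNA repair genes had 11 of 41 higher, 8 lower and a median of -0.02, with 10 and 10 after median centring. Against the Smc2 arrays the G2/M median was -0.14 and against the Smc1 arrays 0.03.

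Among other factors of chromosome structure, 3 of 22 cohesin genes were higher and 8 lower, with a median of -0.05. At a limma unadjusted p below 0.05, 5 were lower and 0 higher. The largest differences were in meiotic members: Smc1b gave 123 and 428 against 849 and 660.3, and Stag3 gave 729 and 1342 against 2589 and 2013. Both are meiotic forms of cohesin subunits. In the Smc5/6 complex 2 of 8 genes were higher and 2 lower. Of 24 genes of chromosome compaction and the mitotic scaffold, 8 were higher and 3 lower. E2f3, a transcription factor of the cell cycle, gave 1171 and 687 against 347 and 355. Top2b, the interphase form of topoisomerase II, gave 1718 and 1669.7 against 1230.3 and 1361, and Akap8, an anchor protein that has been linked to condensin recruitment, gave 2577 and 1822 against 1527 and 1358. For each of these 3 the groups overlapped on the other probe set above the floor.

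Ribosomal protein genes were lower on both hairpins in 36 of 43 cases and higher in 2, with a median of -0.24 and 13 lower at an unadjusted p below 0.05. This depended on the scaling: after quantile normalization between arrays 10 were lower and 6 higher, and the median was -0.01. Rpl37 gave 6390.1 and 7466 against 8244 and 10431. The exceptions, Rpl39 and Rpl27a, gave 274 and 397 against 202 and 231, and 1339 and 1447 against 1146 and 1025. Glycolysis and hypoxia genes had 12 of 32 lower and 3 higher, with a median of -0.24 (-0.10 after quantile normalization). By hairpin the median was -0.45 with hairpin 3 and -0.045 with hairpin 4. Hk1, which starts glycolysis, gave 575 and 1048 against 1617 and 2159.8, and the lactate exporter Slc16a3 gave 82.7 and 149 against 199 and 368.

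Imprinted genes had 12 of 28 higher and 3 lower, with a median of 0.12. The 2 noncoding RNAs Meg3 and Mirg, expressed from the maternal copy of the Dlk1-Dio3 region, were among the higher. Meg3 gave 6373 and 5355 against 3953 and 2814 (0.81, standard error 0.18, limma adjusted p = 0.194) on its brightest probe set, though 1 dim set was separated the other way, at 71.6 and 51.7 against 74.8 and 108. Mirg gave 782 and 309.6 against 123 and 192. Ribosome biogenesis and Myc target genes had 12 of 35 higher and 5 lower, with a median of 0.16 (0.25 with hairpin 3, -0.02 with hairpin 4). Myc gave 419.8 with hairpin 3 but 84.9 with hairpin 4, against 35.8 and 77.9. The GFP mean of Myc, 56.8, was under the floor, and Myc passed the filter only with the help of knockdown arrays.

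Stress, death and immune lists were close to all genes or split. Targets of p53 had 8 of 28 higher and 4 lower, with a median of 0.13. Cdkn1a, the cell cycle inhibitor p21, gave 2055 and 1649 against 2655 and 3487, and Rrm2b, a ribonucleotide reductase subunit, gave 375 and 632 against 1319 and 1216, so these 2 targets were lower. Plk2, also a target, was higher, at 2697 and 1213 against 723 and 948. Interferon response genes had 6 of 34 higher and 5 lower. Ifit2, an antiviral protein, gave 134 and 97.0 against 22.4 and 6.48, with a limma adjusted p of 0.153 and controls under the floor. It passed the filter only through knockdown arrays, which favours a higher result.

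The remaining lists had near-equal numbers in each direction or few genes. The stress and unfolded protein responses had 7 of 30 higher and 7 lower, apoptosis 7 of 29 and 5, polycomb and DNA methylation 8 of 29 and 7, cholesterol synthesis 3 of 20 and 5, and histones 0 of 9 and 2. Stard4, a sterol carrier, gave 357 and 541 against 819 and 816. Of its 2 further probe sets above the floor, 1 was separated the same way and 1 the other way, at 268 and 309 against 254 and 267.

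The ranked genes were set beside the other knockdowns, which share the GFP arrays but were not used to rank. Lefty1 gave 10270.2 and 3373 with the Smc2 hairpins and 8934 and 5945 with the Smc1 hairpin, so all 6 knockdown arrays lay above both controls. Dazl gave 533 and 1292, and 677 and 1379, all below both controls. Pcyt1b, by contrast, gave 818 and 486 with Smc2 but 321 and 223 with Smc1, near the GFP values of 288 and 341. The opposite held for Scel, at 626 and 794 with Smc1, above the controls.

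**Figure D5:**
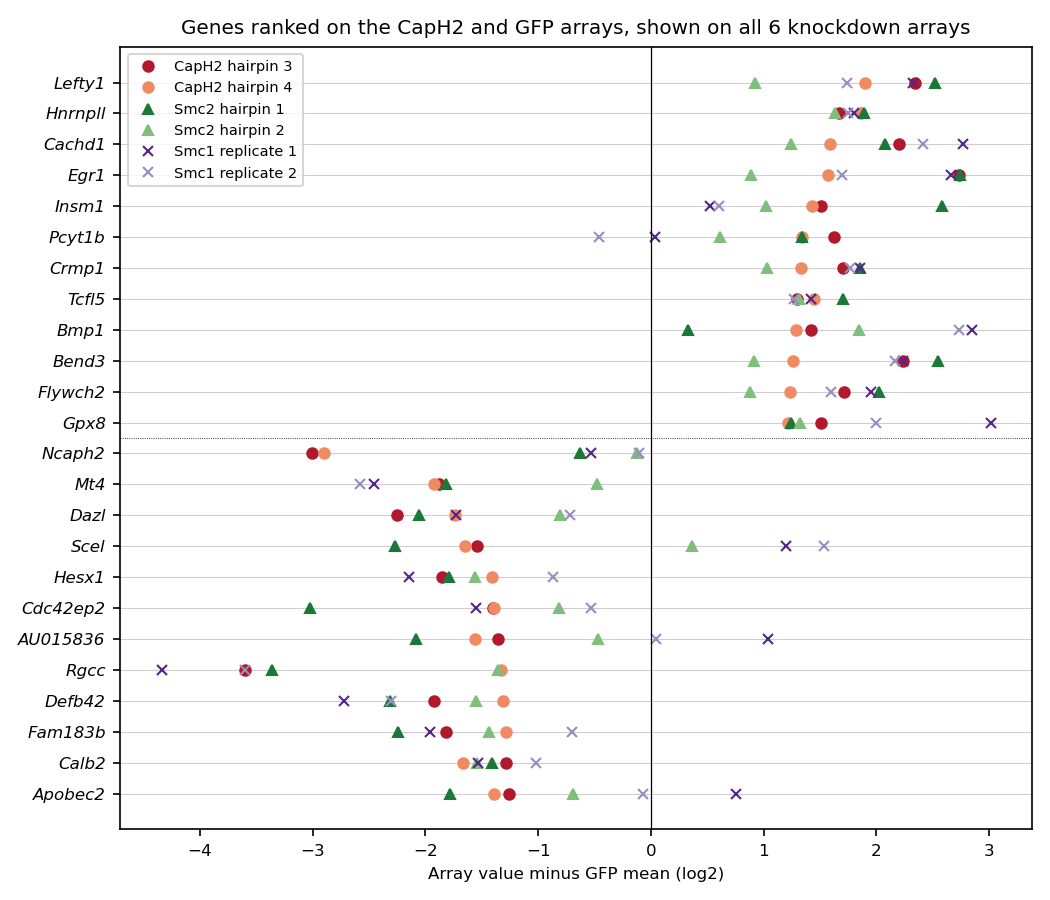
Array value minus the GFP mean (log2 of intensity plus 16) for the 12 higher and 12 lower ranked genes on each of the 6 knockdown arrays; every symbol is 1 array and the vertical line is the GFP mean. Ncaph2 is at -3.01 and -2.90 on the CapH2 arrays and between -0.63 and -0.11 on the other 4, Hnrnpll stands at 1 level on all 6, and Pcyt1b, Scel, AU015836 and Apobec2 differ between CapH2 and Smc1.

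Direct differences from the Smc2 and Smc1 arms do not use the GFP values, although the spread in their tests was estimated over all 8 arrays. CapH2 differed from Smc2, the arm shared by both condensins, in 1 gene (0.00807% of those tested; limma adjusted p below 0.05), and this was Ncaph2, at -2.58 (95% interval -3.07 to -2.10, limma adjusted p = 0.00416). The call was lost without hairpin 3, and 3 genes were called without the second Smc2 array. Among the other 23 ranked genes the intervals of the CapH2 minus Smc2 difference all included 0 and were wide: that of Lefty1 ran from -0.53 to 1.33 and that of Egr1 from -0.92 to 1.59. Smc2 itself was 6088 and 7094 with the CapH2 hairpins and 2234 and 2859 with its own.

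CapH2 differed from Smc1, which targets the cohesin subunit Smc1a, in 386 genes: CapH2 was higher in 118 (0.952%) and lower in 268 (2.16%). The count moved with single arrays: it was 4 without hairpin 4, 6 without the first Smc1 array, 250 without hairpin 3, 182 without the second Smc1 array, 139 and 138 without the first and second GFP array, and 616 and 622 without the first and second Smc2 array. Smc1a gave 3662 and 3840 on the CapH2 arrays against 535 and 454 on the Smc1 arrays. Of the ranked genes 4 apart from Ncaph2 were called. Pcyt1b was 1.70 higher in CapH2 (95% interval 1.07 to 2.33, limma adjusted p = 0.0181). Scel, AU015836 and Apobec2 were lower in CapH2, by differences of -2.96, -2.00 and -1.67 (limma adjusted p between 0.0434 and 0.0482).

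Among the largest differences, Nupr1, a stress-induced chromatin protein, gave 965 and 2038 in CapH2 against 140.4 and 126 in Smc1. Its GFP values were 2595 and 1122. Jam2, an adhesion molecule of embryonic stem cells, gave 2656 and 3070 against 548 and 852, with 3865 and 3162 in GFP. Myo1f, Lrrc34 and Myb were the others higher in CapH2 than in Smc1, with differences from 2.01 to 2.52. Lrrc34 gave 1639 and 4581 in CapH2, below both GFP values of 5730 and 5123. Myo1f gave 1036 and 858 in CapH2, above the GFP values of 693 and 854, and the CapH2 and GFP values of Myb overlapped. On the lower side were 4 interferon-induced genes, Gbp3, Psmb8, Gbp2 and Cxcl10, with differences from -3.78 to -3.19. Gbp2, a guanylate-binding protein, gave 623 and 283 in CapH2 and 336 and 342 in GFP against 5792 and 2783 in Smc1. The CapH2 and GFP values of Gbp2 overlapped, as did those of Gbp3 and Cxcl10. Psmb8 was above GFP on both hairpins, at 133 and 54.4 against 50.9 and 4.67, but of these values only that of hairpin 3 was above the floor. Its groups overlapped on a further, dim probe set, at 47.4 and 7.46 against 8.68 and 5.07. Acta1, a muscle actin, gave 651 and 287 against 2962 and 4824, with 242 and 585 in GFP, and Scel completed these 6.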

How the data were processed

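The deposited values are intensities, 1 linear number per probe set and array, made by the authors. How they summarised the probes, and on which genome build, is stated by no label or header. Intensities ran from 0.0461 to 54756 and their trimmed means lay between 488.9 and 490.0, so scaling was kept. R 4.3.3 was used on log2(value + 16). Probe sets with exactly 1 symbol were used (34758 of 44903, array controls left out), and the brightest stood for each gene. All 8 arrays were fitted with limma 3.58.1 (group means, intensity trend, 4 residual degrees of freedom and 5.97 from the prior, Benjamini-Hochberg over 12394 genes, called below 0.05). With 2 arrays per group, p-values rest on a spread per gene pooled over all groups and the prior. It joins differences between hairpins (CapH2, Smc2) to differences between replicates of a single hairpin (Smc1, GFP). It is therefore not the spread between the CapH2 hairpins.

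The arrays compared, the 32 gene lists (886 genes, 727 tested), the rankings and the named genes (the called and ranked genes above, condensin subunits, up to 3 members per list with the largest smaller hairpin change, and core pluripotency factors) were chosen with earlier results of these data known. On simulated data with 12394 genes, CapH2 against GFP recovered 0, 10, 52 and 74% of genes changed by 0.5, 1, 1.5 and 2 on the log2 scale, with 4 false calls. Alternatives were pseudocounts of 1 and 64, no filter, 2 other scalings, the mean of probe sets, no trend, 4 arrays alone, every probe set tested and each array left out.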

Additional observations from a re-analysis of the deposited data

How the results depend on the processing

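The direction of the Ncaph2 and Hnrnpll differences held under every alternative run, and pseudocounts, median centring and testing all 24871 probe sets singly (2 called, the same 2 genes) kept both calls. With quantile normalization 3 genes were called against GFP, Snrpa1 being added. The mean of all probe sets of a gene left 1 gene called against GFP, 0 against Smc2 and 246 against Smc1; Ncaph2 was then -1.44 (limma adjusted p = 0.0688). Without the intensity trend the counts were 1, 0 and 129 (1436 genes against GFP at an unadjusted p below 0.05), and Hnrnpll had a limma adjusted p of 0.0693. Without the filter 129 genes were called against Smc1, quantile normalization called 2 against Smc2, and the CapH2 and GFP arrays alone called 10 against GFP. The cause was not tested.

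With each array left out in turn, counts ran from 0 to 4 against GFP, from 0 to 3 against Smc2 and from 4 to 622 against Smc1, those separated higher from 3132 to 5104 and lower from 2719 to 4663. Ncaph2 ran from -3.02 to -2.89. Without hairpin 4 the 3 calls against GFP were Hnrnpll, Id3 and Ncaph2. Genes on opposite sides turned by construction, as did those near 0: Fgfbp1 ran from -0.18 to 2.34, Pdzk1 from -1.72 to 0.28, Zfp30 from -1.39 to 0.38, Cxcl14 from -1.47 to 0.26, Prr5l from -1.11 to 0.59, Ccn1 from -0.87 to 0.82, Ncapd3 from -0.39 to 0.076 and Ncapg from -0.46 to 0.053. Averaging probe sets turned Prr5l to 0.10, Ccn1 to 0.27 and Rpl27a to -0.10. Of the list medians, 21 moved by more than the hairpins' spread with an array left out and 15 under other settings. Of the 32 lists, 26 kept the sign of their median without hairpin 3, 27 without hairpin 4 or either GFP array, and 29 after median centring. No paired analysis was possible because the CapH2 and GFP groups share no replicate numbers.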

Other observations

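Among genes not described above, 4 were named after their values were seen, because an alternative called them. Snrpa1, a protein of the U2 spliceosomal particle, gave 9037 and 9786 on the CapH2 arrays against 4896 and 4768 on the GFP arrays, with 9416 and 8493 in Smc2 and 6933 and 6354 in Smc1. Its change against GFP was 0.96 (standard error 0.13, limma adjusted p = 0.0956), and the pairs of values lay close together in every group. Gja1, the gap junction protein connexin 43, gave 10703.5 and 7085 against 3409.9 and 3497 (limma adjusted p = 0.153). Cox6b2, a testis form of a cytochrome c oxidase subunit, gave 2506 and 2823 against 5908 and 6544 (limma adjusted p = 0.299). Id3, an inhibitor of basic helix-loop-helix factors, gave 971 with hairpin 3 and 202 with hairpin 4 against 57.9 and 73.3 (limma adjusted p = 0.197), so the hairpins agreed in direction and differed widely in size. The controls of Id3 were under the floor, and it passed the filter only through knockdown arrays, which favours a higher result.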
